A study of Mus musculus with 21 samples.

Results

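The 15 aP2-Cre/+;SmoM2/+ tumors of a mouse rhabdomyosarcoma series were ranked on Cd74, and the 5 highest, here Cd74-high, were compared with the 5 lowest, here Cd74-low. Rhabdomyosarcoma is a tumor with features of skeletal muscle. The 10 tumors compared are part of 21 samples, and the other 5 aP2-Cre tumors, here the middle tumors, lie between both groups by construction. The ranking used the Cd74 probe whose mean over all 21 arrays was highest after quantile normalization of the non-normalized values. All tumors ranked carried SmoM2, an activated form of Smoothened that switches on Hedgehog signalling, with Cre under the aP2 promoter, that of the fatty acid carrier Fabp4, which is active in adipocytes. The other samples of the series are 3 Myogenin-Cre/+;SmoM2/+ tumors and 3 muscle samples of SmoM2/+ mice whose label names no Cre. The strain was a mixed C57Bl/6 and 129X1/SvJ background in every sample. The labels give 1 mouse number for each tumor, which is used as its name below, and no age.

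Cd74 encodes the invariant chain, which binds newly made MHC class II molecules, keeps peptides out of their groove and guides them to the compartments where antigen is loaded. Class II molecules, made of an alpha and a beta chain, show peptides of taken-up proteins to CD4+ T cells and are made mainly by dendritic cells, macrophages and B cells. Their genes are switched on together by the transactivator Ciita, which interferon gamma induces. In whole tumors, fewer cells of a type and less RNA per cell cannot be told apart.

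Class II promoters carry a Y box, the CCAAT-type element that NF-Y binds and on which Ciita acts with other factors. Of 13 class II pathway genes measured, 10 had a promoter in the RefSeq table of build GRCm38.p6. The Y box CTGATTGG, searched on both strands of the 250 bases before the start, was present in 3 of these 10 (30%) and in 4.07% of 27025 promoters. An interferon-response type of motif, GAAA followed after 2 free bases by GAAA and searched in the same way, was present in 1 of the 10, that of Ctss, and in 3.04% of all promoters. The 120 bases before the start are shown for the genes with a Y box, in the direction of the gene, because their transcripts are among those set beside Cd74 below. Capitals mark the Y box. H2-Aa lies on the minus strand at chr17:34287824-34287943. H2-Eb1 lies on the plus strand at chr17:34305747-34305866, and H2-Oa on the plus strand at chr17:34092259-34092378.
H2-Aa: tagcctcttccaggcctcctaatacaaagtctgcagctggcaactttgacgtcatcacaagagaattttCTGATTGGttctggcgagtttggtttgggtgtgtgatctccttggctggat
H2-Eb1: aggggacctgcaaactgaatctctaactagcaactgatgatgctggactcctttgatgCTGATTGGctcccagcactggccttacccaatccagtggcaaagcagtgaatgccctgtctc
H2-Oa: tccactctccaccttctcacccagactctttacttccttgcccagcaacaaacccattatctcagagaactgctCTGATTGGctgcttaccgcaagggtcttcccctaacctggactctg
The Y box ends 44 bases before the start in H2-Aa, 55 in H2-Eb1 and 39 in H2-Oa. A match to these letters is a description of the sequence and was not set against binding data.

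Levels below are log2 intensities after background correction and quantile normalization, so that a difference of 1.00 is a doubling. The Cd74 level was 14.40 in tumor 115, 14.03 in tumor 174, 13.84 in tumor 65, 13.32 in tumor 165 and 13.30 in tumor 135, the Cd74-high tumors. It was 12.67 in tumor 89, 12.58 in tumor 95, 12.49 in tumor 144, 11.92 in tumor 90 and 11.25 in tumor 104, the Cd74-low tumors. The middle tumors were 164, 64, 68, 128 and 140, between 12.70 and 13.25. The edges were narrow. Tumor 135 was inside the Cd74-high group at 13.30 and tumor 164 outside it at 13.25, while tumor 89 was inside the Cd74-low group at 12.67 and tumor 140 outside it at 12.70. Cd74 averaged 13.78 ± 0.47 in Cd74-high and 12.18 ± 0.60 in Cd74-low tumors (SD, n = 5 each), which describes the ranking and was not tested. It was 8.97 ± 1.00 in Myogenin-Cre tumors and 10.24 ± 0.32 in muscle (SD, n = 3 each), below every aP2-Cre tumor.

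Over the 15 tumors the 2 other Cd74 probes correlated with the ranking probe at r = 0.988 and 0.959. All 3 probes share the same arrays. A ranking on the second probe put tumor 164 in place of tumor 135 and tumor 128 in place of tumor 89. A ranking on the third probe kept the Cd74-high tumors and put tumors 128 and 140 in place of tumors 89 and 144.

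Between 35.7% and 39.2% of probes were detected in Cd74-high tumors and between 36.1% and 37.4% in Cd74-low tumors. Y-linked probes were detected in 3 Cd74-high and 2 Cd74-low tumors. The authors' normalized table shows 5 sets of arrays, each sharing 1 distribution of values, and the labels do not say what the sets are. Tumors 89, 90 and 95, all Cd74-low, came from 1 set that holds no Cd74-high tumor. All 3 Myogenin-Cre tumors came from that same set, and all 3 muscle samples from the set of tumors 128, 135 and 140. Only the set of tumors 104, 115 and 164 and the set of tumors 165, 174 and 144 hold both groups, so differences within these sets are given beside the pooled ones for the genes on which the results turn and where they differ most. In these sets Cd74-high tumors 115, 165 and 174 had Y-linked probes detected and Cd74-low tumors 104 and 144 had none. Values within the sets, and fits with the set as a block, therefore rest on 1 against 1 and 2 against 1 tumors, and in them the Cd74 rank and sex cannot be told apart. Tumors 115 and 104 also had the highest and lowest Cd74 level of all aP2-Cre tumors, at 14.40 and 11.25. For a gene that follows Cd74, a larger difference within their set or with the block is therefore no sign of a closer association. With Y-linked detection as a covariate in the comparison of all 10 tumors, H2-Aa differed by 1.75, C4a by 1.52, C4b by 1.42 and Ebf3 by -0.89, each with a limma adjusted p of 0.0593.

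Of 11033 genes tested, Cd74 left out, limma called 3 higher (0.0272%) and 1 lower (0.00906%) in Cd74-high tumors at an adjusted p under 0.05. At an unadjusted p under 0.05 there were 839 higher and 778 lower. Because the tumors were grouped by a transcript on the same arrays, each p-value measures association with the Cd74 rank among these tumors, and no treatment effect. The groups did not overlap, every Cd74-high tumor lying above or below every Cd74-low tumor, for 181 genes higher (1.64%) and 132 lower (1.2%). These counts were 330 and 24 with arrays centred on their medians instead, which shifted the median difference over all genes to 0.09, and 57 and 20 with the authors' normalized values. A fit of each gene on the Cd74 level over all 15 tumors called 440 genes rising (3.99%) and 230 falling (2.08%) with Cd74. That fit uses the probe that ranked the tumors and includes the tumors of both groups, so it is no separate support. The median difference over all genes was -0.02. Leaving out tumor 135, the Cd74-high tumor nearest the middle group, gave 256 higher and 76 lower calls. All 4 calls were lost when tumor 115, 174, 65, 165, 89 or 90 was left out, and with the array set as a block (adjusted p 0.0584 to 0.217), and 2 of the 4 when tumor 95, 144 or 104 was left out.

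The class II chains followed the Cd74 rank closely. H2-Aa, the alpha chain of I-A, had levels of 11.68, 11.87, 10.91, 11.23 and 10.75 in Cd74-high tumors 115, 174, 65, 165 and 135. It had 9.82, 9.46, 9.97, 8.95 and 9.16 in Cd74-low tumors 89, 95, 144, 90 and 104. The groups did not overlap, and all middle tumors, at 9.85 to 10.49, were below the Cd74-high ones. Middle tumors 64 and 140, at 9.85 and 9.89, were also below Cd74-low tumor 144. The difference was 1.81 ± 0.25 (SE; limma adjusted p = 0.0402), or 3.52-fold, and H2-Aa was the only class II gene called between the groups. It was 2.52 in the set of tumor 115 and 1.58 in the set of tumor 174.

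H2-Ab1, the beta chain of I-A, had 14.06, 13.86, 13.92, 13.38 and 12.72 in the Cd74-high tumors, against 12.43, 12.29, 12.11, 11.56 and 11.02 in the Cd74-low tumors, in the order above. H2-Eb1, the beta chain of I-E, had 13.68, 13.48, 13.005, 12.76 and 12.03 in the Cd74-high tumors, against 11.61, 11.40, 11.71, 10.79 and 10.42 in the Cd74-low tumors. Neither gene's groups overlapped, and tumor 135 was the lowest Cd74-high tumor for both. The differences were 1.70 ± 0.31 for H2-Ab1 and 1.81 ± 0.33 for H2-Eb1 (SE), and neither passed between the groups (limma adjusted p = 0.0776 for both). Within the sets of tumors 115 and 174 they were 3.04 and 1.51 for H2-Ab1, and 3.27 and 1.42 for H2-Eb1. In the fit on Cd74 over 15 tumors the limma adjusted p was 3.5e-07 for each. As that fit uses the probe that ranked the tumors, it is no separate support.

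Ciita had 8.90, 8.62, 8.77, 7.66 and 6.53 in the Cd74-high tumors, against 6.52, 6.29, 5.93, 6.16 and 5.41 in the Cd74-low tumors. The groups met at their edge, with tumor 135 at 6.53 and tumor 89 at 6.52. The difference was 2.03 ± 0.42 (SE; limma adjusted p = 0.0795), with 3.49 and 2.21 within the sets. A second Ciita probe gave 1.43.

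**Figure D1:**
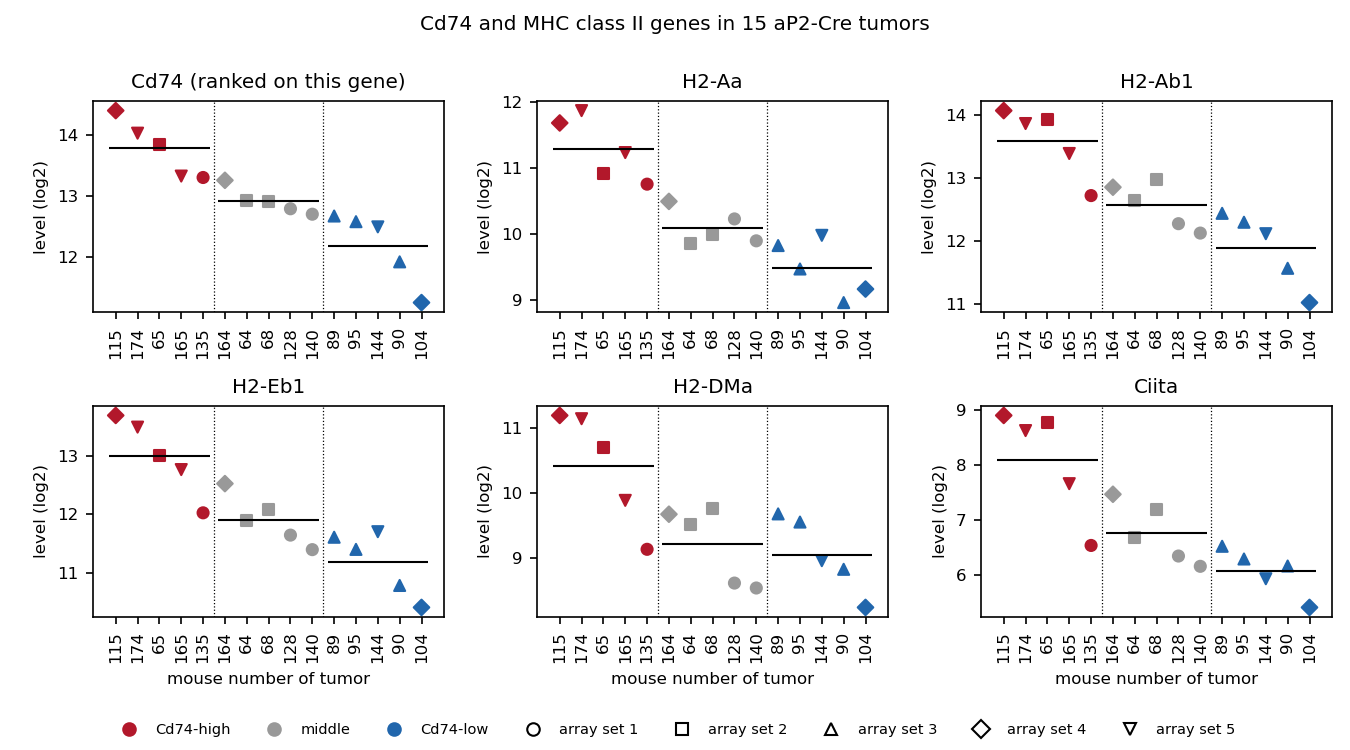
Level (log2, vertical axis) of Cd74 and 5 class II pathway genes in each aP2-Cre tumor, ordered by Cd74 on the horizontal axis, with colour for the group, marker shape for the array set and a black line for each group's mean. H2-Aa, H2-Ab1, H2-Eb1 and Ciita do not overlap between Cd74-high and Cd74-low tumors, while H2-DMa overlaps because tumor 135 is at 9.13 and tumor 89 at 9.68.

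The peptide-loading genes had differences of like size but overlapping groups. H2-DMa and H2-DMb1, chains of the DM molecule that exchanges peptides on class II, differed by 1.37 ± 0.40 and 1.57 ± 0.39 (SE), and H2-DMb2, a second DM beta gene, by 1.59 ± 0.40. H2-Oa and H2-Ob, chains of DO, which restrains DM, differed by 1.75 ± 0.40 and 1.02 ± 0.26. In H2-DMa, H2-DMb1, H2-DMb2 and H2-Oa tumor 135 was below tumors 89 and 95, whereas H2-Ob overlapped because tumor 135 was at 5.49 and tumor 90 at 5.67. The smallest limma adjusted p among the 5 was 0.0881, for H2-Oa. Ctss, the cathepsin that cuts the invariant chain, did not overlap and differed by 0.76 ± 0.17. Ifi30, a thiol reductase of antigen compartments, overlapped at 0.80 ± 0.30. With the array set as a block H2-DMa differed by 2.16 and Ifi30 by 1.26. H2-Oa was detected in only 3 Cd74-low tumors and H2-Ob in only 2.

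Of the 13 class II pathway genes measured of 16 listed, 1 passed between the groups, 5 did not overlap in the higher direction, and 11 rose with Cd74 over 15 tumors. Over all genes these shares were 0.0272%, 1.64% and 3.99%. The list's median difference was 1.57, against -0.02 over all genes. The other 2, Rfxank and Rfxap, parts of the factor RFX that binds class II promoters beside the Y box, had differences of -0.11 ± 0.14 and -0.20 ± 0.11. H2-Ea, H2-Eb2 and Rfx5 were not among the genes measured. The list's median was 2.96 in the set of tumor 115, which sets the highest against the lowest Cd74 level, and 1.51 in the set of tumor 174. It was 2.16 with the array set as a block, a fit in which limma called 0 genes and 1130 had an unadjusted p under 0.05.

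The 10 genes whose levels were most like Cd74 over the 15 tumors had Pearson r between 0.94 and 0.97. They were H2-Eb1 (r = 0.97), H2-Ab1, Selplg, Tnfsf13b, Il7r, Ccl5, Dennd1c, Il10ra, Ikzf1 and Zmynd15. Selplg is a ligand that leukocytes use to roll on vessel walls, and Tnfsf13b is the B cell survival factor BAFF. Il7r and Il10ra are cytokine receptors of lymphoid and myeloid cells, Ccl5 is a chemokine of T and NK cells, and Ikzf1 is a lymphoid transcription factor. Without tumors 115 and 104, the farthest from the median Cd74 level, r was 0.96 for H2-Eb1 and 0.88 for Dennd1c, the lowest of the 10. These values share arrays and were picked for their size, so no test is given.

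Complement C4 genes and 1 transcription factor made up the other calls between the groups. C4a had 11.37, 11.59, 11.13, 11.54 and 11.03 in the Cd74-high tumors, against 10.14, 10.17, 9.65, 9.72 and 8.99 in the Cd74-low tumors. The difference was 1.60 ± 0.21 (SE; limma adjusted p = 0.0402), with 2.38 and 1.91 within the sets. C4b differed by 1.49 ± 0.21 with the same adjusted p. C4a and C4b are near-identical copies and may share signal, and C4b's other probes gave differences down to 0.65. The middle tumors sat nearer the Cd74-high ones here: C4a was 10.74 to 11.29 in them, above every Cd74-low tumor and overlapping the Cd74-high tumors. C2, the complement protease that joins C4, was chosen after its values were seen; it differed by 1.17 ± 0.19 without overlap (adjusted p = 0.0716).

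Class I presentation genes, which show peptides made inside the cell to CD8+ T cells, had a median difference of 0.94 over 20 measured. None of the 20 passed between the groups by limma, 17 were higher at an unadjusted p under 0.05, 8 did not overlap in the higher direction, and 15 rose with Cd74 over 15 tumors. Among all 11033 genes, 839 were higher at that p, 1.64% did not overlap in that direction and 3.99% rose. H2-D1, a classical heavy chain, had 12.86, 12.52, 12.15, 12.12 and 11.69 in the Cd74-high tumors, against 11.27, 11.49, 11.57, 11.23 and 10.79 in the Cd74-low tumors. H2-Q7 and H2-T23, non-classical heavy chains, differed by 1.33 ± 0.22 and 0.93 ± 0.17 (SE), and H2-Q8 by 1.47 ± 0.30. Heavy chain genes are near-identical in parts, so these probes may share signal.

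Of 26 interferon-stimulated genes measured, 24 had a higher mean in the Cd74-high tumors, with a median difference of 0.50. At an unadjusted p under 0.05, 11 were higher, against 839 of all 11033 genes. In the higher direction 3 did not overlap, against 1.64% of all genes, and 4 rose with Cd74, against 3.99%. Cxcl9, a chemokine that interferon gamma induces and that draws T cells through Cxcr3, had the largest difference among genes without overlap. It had 12.16, 10.84, 10.41, 9.21 and 7.85 in the Cd74-high tumors, against 7.34, 7.25, 7.79, 6.93 and 6.85 in the Cd74-low tumors. The difference was 2.86 ± 0.63 (SE; adjusted p = 0.0853), with 5.30 and 2.24 within the sets. Within the Cd74-high group it spread widely, with tumor 115 highest and tumor 135 lowest. Cxcl10, a ligand of the same receptor that was detected in only 2 Cd74-low tumors, differed by 2.03 ± 0.39 without overlap, and Ifit2, an antiviral gene, by 0.54 ± 0.13. Irf1, an interferon-induced transcription factor, overlapped at 0.86 ± 0.28.

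Leukocyte genes moved with the Cd74 rank. All 14 pan-leukocyte genes measured were higher at an unadjusted p under 0.05, 4 did not overlap, and 11 rose with Cd74, with a median difference of 0.89. Among all 11033 genes, 839 were higher at that p, 1.64% did not overlap in the higher direction and 3.99% rose. Coro1a, an actin regulator of leukocytes, had 11.32, 11.30, 11.55, 10.41 and 10.18 in the Cd74-high tumors, against 10.18, 9.48, 9.57, 9.41 and 9.16 in the Cd74-low tumors. Laptm5 differed by 0.89 ± 0.20 and Cd52 by 1.53 ± 0.32 (SE), with overlap through tumor 135 in both. A second Cd52 probe gave 0.20. The mean level over the list was 8.23 to 9.25 in the Cd74-high tumors, against 7.58 to 8.21 in the Cd74-low tumors. Ptprc, Cd68, Itgax and Cd79a, common markers of leukocytes, macrophages, dendritic cells and B cells, were not among the genes measured.

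Of 29 macrophage genes, 21 were higher and 1 lower at an unadjusted p under 0.05, 11 did not overlap in the higher direction, and 17 rose and 1 fell with Cd74. Their median difference was 0.64, and the list's mean level was 9.26 to 9.96 in the Cd74-high tumors, against 8.69 to 9.18 in the Cd74-low tumors. Over all 11033 genes, 839 were higher and 778 lower at that p. Of all genes, 1.64% did not overlap in the higher direction, 3.99% rose and 2.08% fell with Cd74. C1qa, a chain of complement C1q, had 10.19, 10.001, 9.40, 9.47 and 9.19 in the Cd74-high tumors, against 8.75, 8.68, 8.96, 8.32 and 8.52 in the Cd74-low tumors. Mpeg1, a pore-forming protein of macrophages, differed by 1.20 ± 0.23, Ms4a7 by 1.09 ± 0.24 and Aif1, a macrophage actin-binding protein, by 1.07 ± 0.23 (SE). Cd163, the haemoglobin scavenger receptor of tissue-resident macrophages, went the other way. It had 5.23, 6.08, 5.02, 6.78 and 6.18 in the Cd74-high tumors, against 7.37, 7.54, 5.83, 7.64 and 8.22 in the Cd74-low tumors. Cd163 was detected in only 3 Cd74-high tumors. Its groups overlapped, and the difference was -2.99 in the set of tumor 115 and 0.60 in that of tumor 174. The slope on Cd74 passed at a limma adjusted p of 0.00695, which is no separate support because it uses the ranking probe.

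Of 16 dendritic cell genes, 11 were higher at an unadjusted p under 0.05, 2 did not overlap and 9 rose with Cd74, with a median difference of 0.69. The mean level of this list overlapped, at 7.35 to 8.28 in the Cd74-high tumors, against 7.01 to 7.45 in the Cd74-low tumors. Among all 11033 genes, 839 were higher at that p, 1.64% did not overlap in the higher direction and 3.99% rose. Irf8, a transcription factor needed for dendritic cells that cross-present antigen, had 8.10, 7.99, 8.002, 7.44 and 6.87 in the Cd74-high tumors, against 6.62, 6.54, 6.84, 6.62 and 6.30 in the Cd74-low tumors. Batf3, a partner of Irf8 in these cells, differed by 1.25 ± 0.27 (SE) and overlapped only where tumor 135 was at 6.56 and tumor 144 at 6.57. Itgae, the integrin CD103, differed by 1.77 ± 0.48 and Cd83, a marker of mature dendritic cells, by 0.77 ± 0.19, both with overlap. Other probes of Itgae gave differences down to 0.90. Dnase1l3, a secreted DNase of macrophages and dendritic cells and no member of the list, differed by 2.08 ± 0.44 without overlap. It was detected in only 3 Cd74-low tumors.

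T and NK cell genes had a median difference of 0.99 over 15 measured, of which 10 were higher at an unadjusted p under 0.05, 4 did not overlap and 10 rose with Cd74. Among all 11033 genes, 839 were higher at that p, 1.64% did not overlap in the higher direction and 3.99% rose. Cd3e, a chain of the T cell receptor complex, had 8.43, 7.37, 7.20, 6.14 and 5.48 in the Cd74-high tumors, against 5.40, 4.73, 5.25, 4.52 and 4.78 in the Cd74-low tumors. This probe was detected in 5 Cd74-high tumors and in 1 Cd74-low tumor, and either of its 2 probes in 2 Cd74-low tumors. Cd3g, another chain, was detected in 5 Cd74-high tumors and in 1 Cd74-low tumor, so that its difference of 2.04 ± 0.49 is taken against a group mostly near background. Ccl5 differed by 2.16 ± 0.43, with 4.26 and 1.71 within the sets, and Il7r by 1.21 ± 0.25 (SE), and none of the 3 overlapped. Ccl5 was detected in 4 Cd74-low tumors and Il7r in 3. Of 4 B cell genes measured of 19 listed, 1 rose with Cd74: Mzb1, a chaperone of antibody-secreting cells. It was at 9.79 in tumor 115 and at 6.02 to 7.70 in the other Cd74-high tumors, against 5.70 to 6.29 in the Cd74-low tumors, and its difference was 4.09 and 0.93 within the sets. The other B cell genes measured, Ly6d, Cd79b and Blnk, differed by -1.37, 0.56 and 0.14, with overlap.

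**Figure D2:**
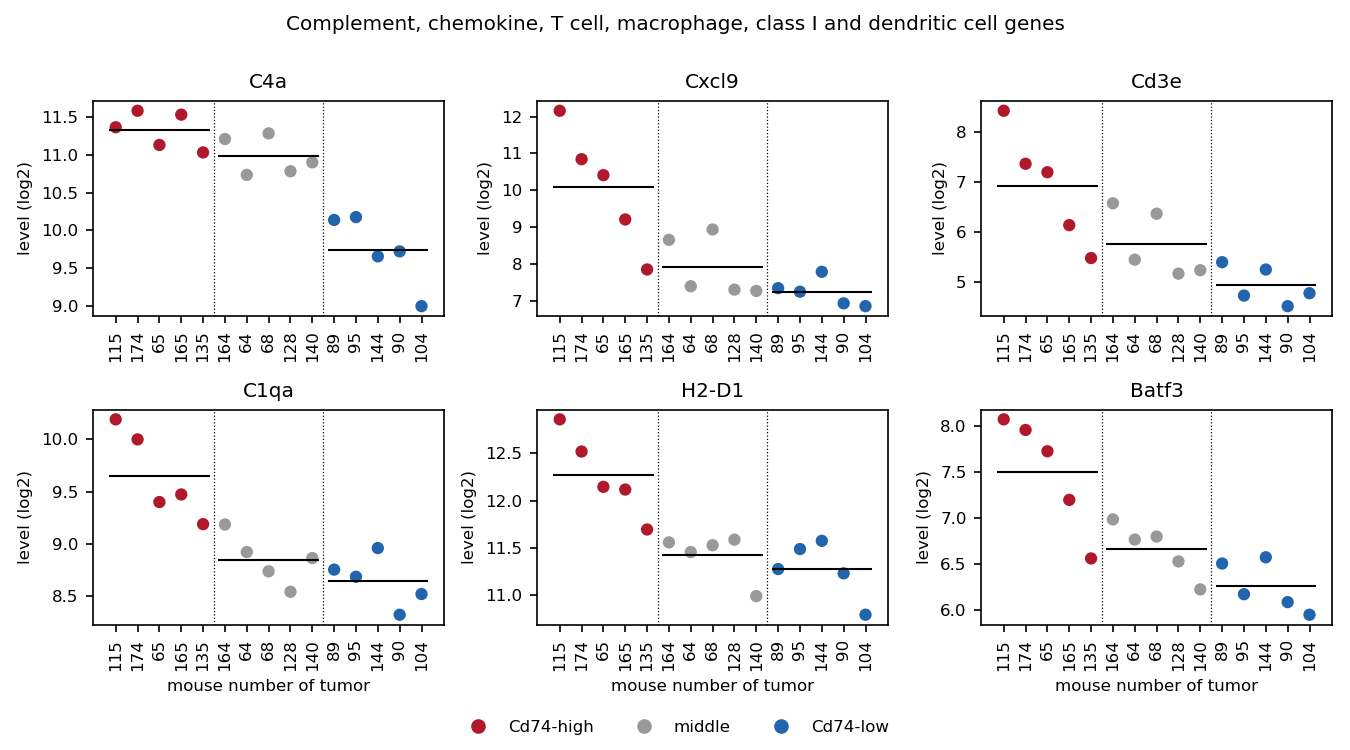
Level (log2) of 6 genes in each aP2-Cre tumor, ordered by Cd74, with a black line for each group's mean. C4a in the middle tumors lies above every Cd74-low tumor and overlaps the Cd74-high tumors, whereas Cxcl9 and Cd3e are high mainly in tumors 115, 174 and 65, and Batf3 meets the Cd74-low level at tumor 135.

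Chemokine, checkpoint and mast cell genes were higher in part. Of 20 chemokine ligand and receptor genes, 9 rose with Cd74, against 3.99% of all genes. In the higher direction 2 did not overlap, against 1.64% of all genes. Of the 20, Cxcl16, a membrane-bound chemokine of antigen-presenting cells, differed by 1.20 ± 0.25 and Ccl12 by 1.32 ± 0.30 (SE). Of 11 checkpoint and costimulation genes, 6 rose with Cd74 and 1 did not overlap, Cd86, a ligand of the T cell receptor CD28, with 0.82 ± 0.17. Sirpa, the receptor of CD47, differed by 0.88 ± 0.19, Cd40 by 1.07 ± 0.25 and Havcr2, the receptor TIM-3, by 1.03 ± 0.33, all with overlap. Other probes gave differences down to 0.47 for Cd86, 0.52 for Sirpa and 0.44 for Cd40. Cd274, the ligand PD-L1, was chosen after its values were seen. It had 9.25, 8.03, 8.74, 8.004 and 6.59 in the Cd74-high tumors, against 6.58, 6.29, 6.83, 8.07 and 6.46 in the Cd74-low tumors. It overlapped through tumors 135 and 90 and rose with Cd74 at a limma adjusted p of 0.0436. As the slope uses the probe that ranked the tumors, it is no separate support.

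Of 8 mast cell genes, 4 were higher at an unadjusted p under 0.05 and 1 rose with Cd74, Fcer1a, the IgE receptor alpha chain, with a difference of 0.67 ± 0.22. Among all 11033 genes, 839 were higher at that p, 3.99% rose and 2.08% fell with Cd74. Fcer1a was detected in only 3 Cd74-low tumors. Of 15 neutrophil genes, 2 rose and 1 fell with Cd74, and their median difference was -0.26. Il1b, a cytokine of neutrophils and macrophages, had a difference of 1.40 ± 0.52 and Ltf, lactoferrin, which glands also make, had -3.10 ± 1.46, with overlap in both. Ltf was detected in 2 Cd74-high tumors, its other probe gave -0.56, and its difference was -10.06 and -2.95 within the sets.

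**Figure D3:**
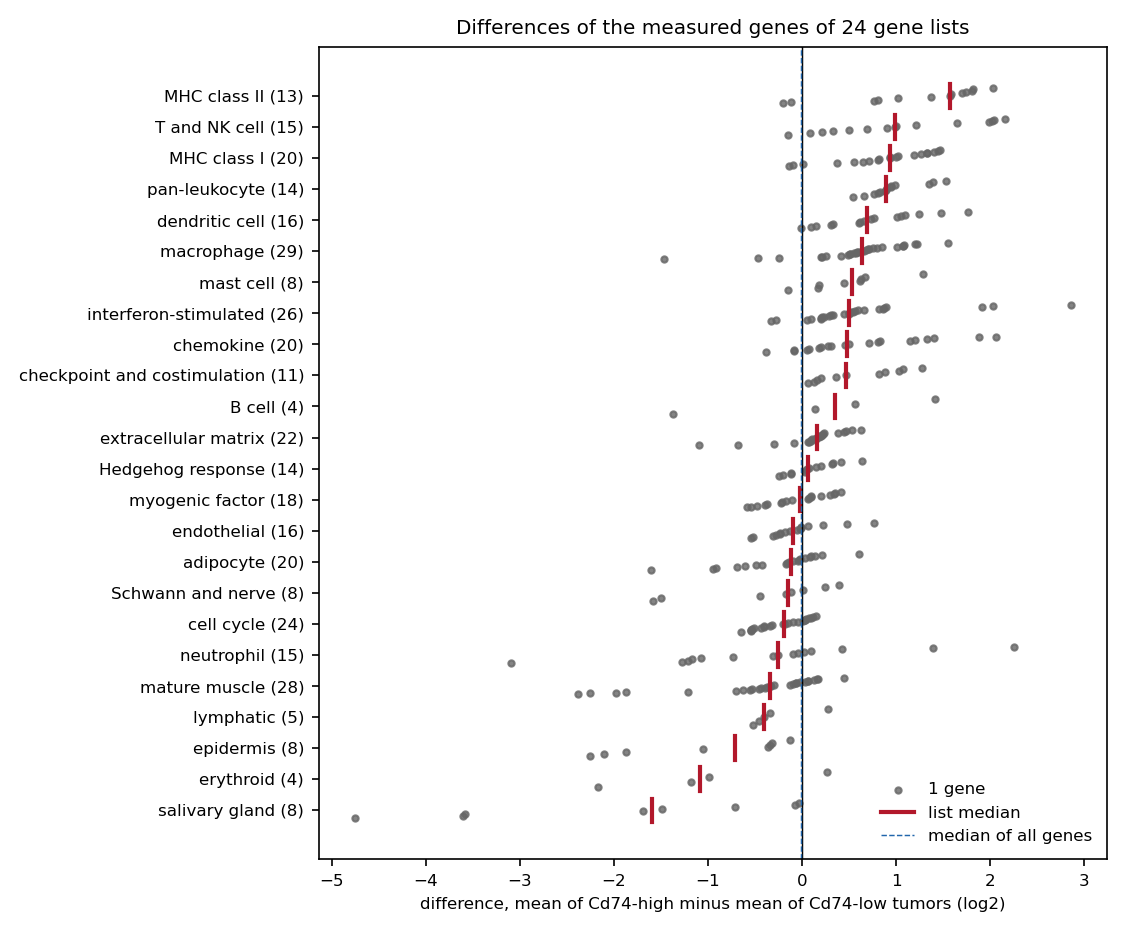
Difference between the means of Cd74-high and Cd74-low tumors (log2, horizontal axis) of every measured gene of 24 lists, with the number measured in parentheses, a red bar for each list's median and a dashed line for the median of all genes. The medians of MHC class II, T and NK cell, MHC class I and pan-leukocyte genes are the highest, at 0.89 to 1.57, and that of salivary gland genes the lowest, at -1.59.

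Limma called 0 genes between the groups in the Hedgehog response, myogenic factor and cell cycle lists, and 3 higher and 1 lower of all 11033. With so few calls, 0 in these lists does not set them apart. At an unadjusted p under 0.05 the share of all genes was 14.7%. Of 14 Hedgehog response genes, 10 had a higher mean in the Cd74-high tumors, 1 was higher at an unadjusted p under 0.05 and none rose or fell with Cd74, with a median difference of 0.06. Ptch1, which binds Hedgehog ligands and is itself induced by the pathway, averaged 9.25 ± 0.23 in Cd74-high and 9.11 ± 0.60 in Cd74-low tumors (SD, n = 5 each), a difference of 0.14 ± 0.25 (SE). Of 18 myogenic factor and fetal muscle genes, 9 had a higher mean in the Cd74-high tumors, none rose or fell with Cd74, 1 was higher and 3 lower at an unadjusted p under 0.05, and the median difference was -0.02. Myog, which drives muscle differentiation, averaged 11.39 ± 0.31 in Cd74-high and 11.30 ± 0.49 in Cd74-low tumors. Myh8, the perinatal myosin heavy chain, was below the top value of the normalized arrays in all 5 Cd74-high tumors and at that value, 15.32, in Cd74-low tumors 89, 95 and 104, so no size is given for that probe. Another of its 3 probes gave a difference of -0.87. Of 24 cell cycle genes, 8 had a higher mean in the Cd74-high tumors, 2 were lower at an unadjusted p under 0.05, Aurka with -0.55 ± 0.21 and Mcm6 with -0.34 ± 0.15, and the median difference was -0.19. With the array set as a block Mcm6 differed by -0.10.

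Genes of mature muscle were lower in part. Of 28 measured, 8 were lower at an unadjusted p under 0.05, 2 did not overlap in the lower direction, and 5 fell with Cd74, with a median difference of -0.34. Among all 11033 genes, 778 were lower at that p, 1.2% did not overlap in that direction and 2.08% fell. A higher mean in the Cd74-high tumors was seen for 7 of the 28, among them Tnni1 at 0.44 and Mb at 0.17, with overlap. Myoz1, a Z-disc protein of fast fibres, had 6.17, 7.91, 8.22, 8.38 and 9.25 in the Cd74-high tumors, against 9.94, 9.28, 9.55, 11.55 and 9.52 in the Cd74-low tumors. Pvalb, the calcium buffer of fast fibres, had 6.61, 12.84, 11.12, 12.87 and 13.11 in the Cd74-high tumors, against 13.13, 13.21, 13.46, 14.82 and 13.84 in the Cd74-low tumors. Tumor 115 stood far below the others for Pvalb, and tumor 90 was the highest of the 10 for both genes. Ckm, muscle creatine kinase, had 8.02 in tumor 115 and 10.38 to 11.84 in the other Cd74-high tumors, against 11.77 to 13.94 in the Cd74-low tumors. Its difference was -2.25 ± 0.61, with -4.42 and -1.61 within the sets. Without tumor 115, the list's median difference was -0.25.

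The 10 genes lower in Cd74-high tumors by the naming rule included 1 call, Ebf3, a transcription factor of the early B cell factor family. It had 8.54, 8.91, 8.76, 8.67 and 8.53 in the Cd74-high tumors, against 9.71, 9.76, 9.32, 9.51 and 9.49 in the Cd74-low tumors. The difference was -0.88 ± 0.12 (SE; limma adjusted p = 0.0402), with -0.95 and -0.53 within the sets, and a second Ebf3 probe gave -0.17. The middle tumors, at 8.45 to 9.07, overlapped the Cd74-high tumors and were below every Cd74-low tumor. In the fit on Cd74 over 15 tumors Ebf3 did not pass (limma adjusted p = 0.0931). Adh1, an alcohol dehydrogenase of retinol metabolism, had 5.66, 5.65, 5.68, 5.44 and 6.36 in the Cd74-high tumors, against 8.47, 6.44, 7.60, 8.62 and 8.06 in the Cd74-low tumors. The groups did not overlap, and the middle tumors, at 6.43 to 9.89, were all above the Cd74-high ones.

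Cdkn1c, the imprinted cell cycle inhibitor p57, had 10.98, 11.74, 10.32, 10.86 and 11.96 in the Cd74-high tumors, against 12.54, 13.19, 12.07, 12.60 and 13.45 in the Cd74-low tumors. Its difference was -1.60 ± 0.33 (SE; limma adjusted p = 0.0801), with -2.47 and -0.77 within the sets. Cdkn1c fell with Cd74 over 15 tumors (limma adjusted p = 0.00538), a fit on the ranking probe and so no separate support. Fbp2, the muscle fructose bisphosphatase detected in only 3 Cd74-high tumors, differed by -1.97 ± 0.39. Asb12, a SOCS box protein of muscle detected in only 2 Cd74-high tumors, differed by -1.68 ± 0.33. Neu2, the cytosolic sialidase, differed by -1.60 ± 0.31. Each of these did not overlap and fell with Cd74. Ppp1r1b, the phosphatase inhibitor DARPP-32, and Lce3c, a protein of the cornified envelope of skin, were not detected in any Cd74-high tumor. Their mean levels there were at least 3.45-fold and at least 2.78-fold lower, against the lowest detected signal of each array. Ppp1r1b was detected in 4 Cd74-low tumors and was at 4.72 in tumor 95. Lce3c was detected in 3 Cd74-low tumors and was at 4.87 and 4.88 in tumors 95 and 144.

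**Figure D4:**
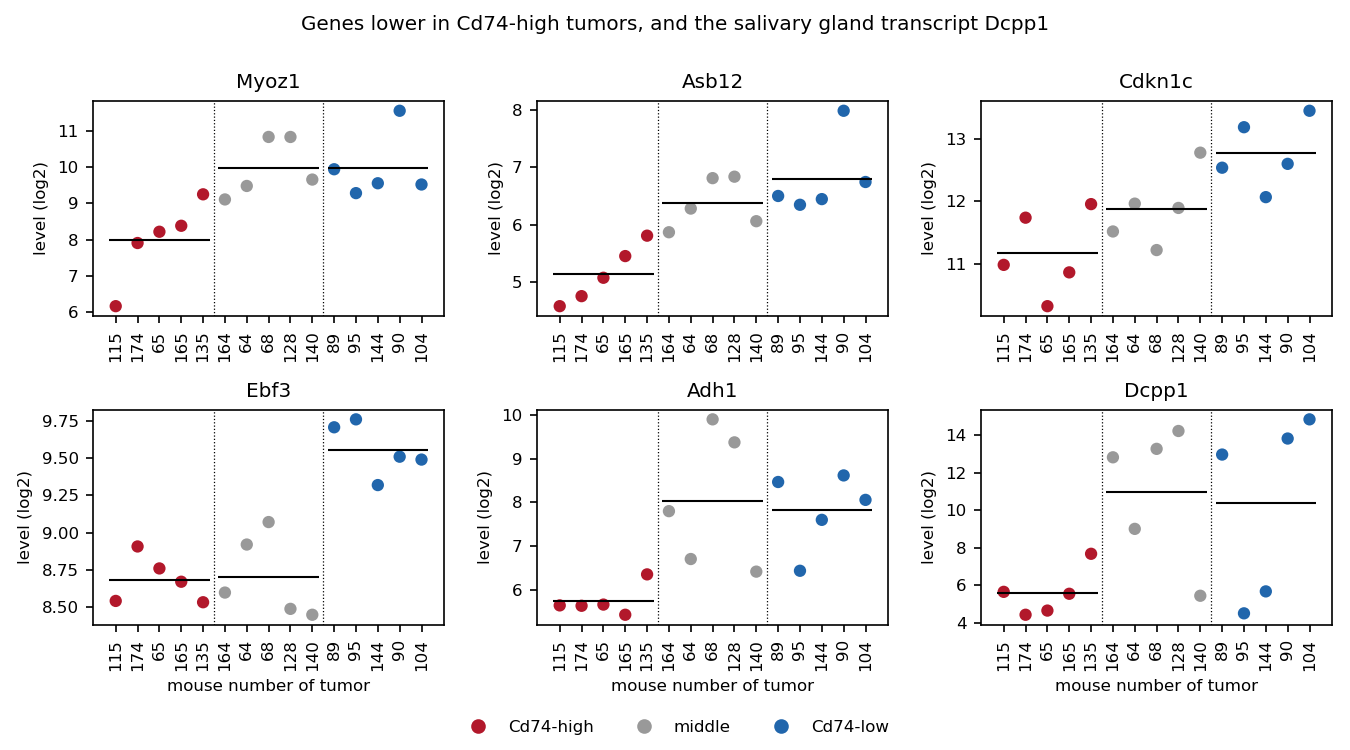
Level (log2) of 6 genes in each aP2-Cre tumor, ordered by Cd74, with a black line for each group's mean. Myoz1, Asb12, Cdkn1c, Ebf3 and Adh1 are lower in every Cd74-high than in every Cd74-low tumor, and Dcpp1 is at 12.96 to 14.83 in Cd74-low tumors 89, 90 and 104 and at 4.52 to 5.68 in tumors 95 and 144.

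Transcripts of other tissues differed between single tumors. The mean level over 8 salivary gland genes was 4.91 to 5.23 in the Cd74-high tumors, against 5.02 to 9.88 in the Cd74-low tumors. In the Cd74-low group it was 9.88 in tumor 89, 8.21 in tumor 90 and 7.33 in tumor 104. Dcpp1, a salivary demilune protein, had 5.66, 4.44, 4.66, 5.56 and 7.68 in the Cd74-high tumors, against 12.96, 4.52, 5.68, 13.81 and 14.83 in the Cd74-low tumors. Pip and Prol1, secretory proteins of glands, reached 15.06 and 15.20 in tumor 89. The salivary genes Smr3a and Prb1 were detected in no tumor of either group. The mean over 8 epidermis genes was 6.15 to 6.51 in the Cd74-high tumors, against 6.14 to 9.38 in the Cd74-low tumors. Lor, a cornified envelope protein, differed by -2.25 ± 0.80 and Krt14, a keratin of basal skin cells, by -2.11 ± 0.88 (SE), with overlap in both.

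The part of these transcripts in the genes lower in Cd74-high tumors was not tested. Without tumors 89, 90 and 104, which leaves 2 Cd74-low tumors, limma called 1 gene higher and 0 lower, with 414 and 249 at an unadjusted p under 0.05. H2-Aa then differed by 1.57, C4a by 1.42 and Ebf3 by -0.86, and Dcpp1 by 0.50. For Sox10, a transcription factor of Schwann cells and of gland cells, the groups did not overlap, at -1.58 ± 0.42, but it was detected in only 1 Cd74-high tumor. Mbp, a myelin protein, overlapped at -1.51 ± 0.60, and 1 of its other probes gave 0.44.

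**Figure D5:**
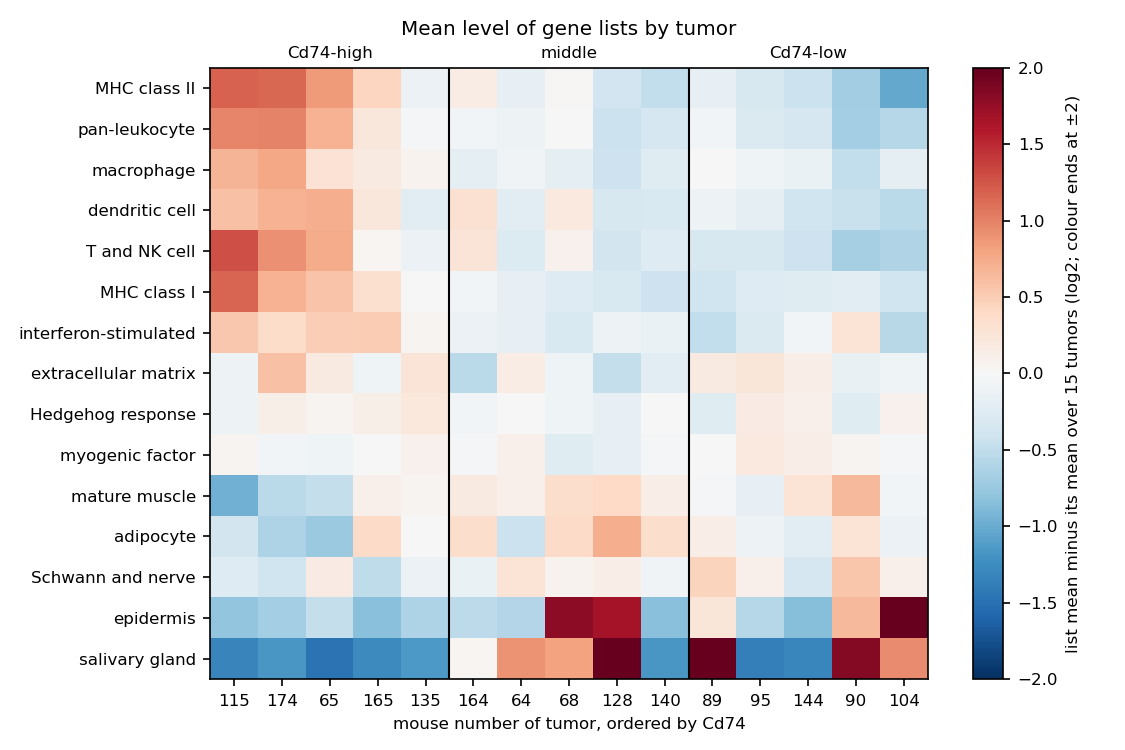
Mean level of 15 gene lists in each aP2-Cre tumor, ordered by Cd74, shown as the difference from the list's mean over the 15 tumors (log2, colour from blue for lower to red for higher, ending at ±2). The MHC, pan-leukocyte, macrophage and T and NK cell lists are highest in tumors 115, 174 and 65, while the salivary gland list is high in tumors 89, 90 and 104 of the Cd74-low group and in tumors 64, 68 and 128 of the middle group.

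Limma called 0 genes of the extracellular matrix and endothelial lists between the groups, and 3 higher and 1 lower of all 11033. With so few calls, 0 in a list does not set it apart. Of 22 extracellular matrix genes, 2 were higher and 1 lower at an unadjusted p under 0.05, against 14.7% of all genes, and the median difference was 0.16. Dcn, the collagen-binding proteoglycan decorin, had 14.19, 14.11, 14.18, 14.28 and 14.38 in the Cd74-high tumors, against 13.76, 13.85, 13.90, 13.59 and 13.79 in the Cd74-low tumors. Its groups did not overlap, with a difference of 0.45 ± 0.09 (SE; adjusted p = 0.0776), and other probes gave differences down to 0.11. Eln, elastin, overlapped at -1.09 ± 0.28, with -1.98 and -0.15 within the sets. Of 16 endothelial genes, 2 were higher and 2 lower at an unadjusted p under 0.05 and none rose or fell with Cd74. Only 4 of the 16 had a higher mean in the Cd74-high tumors, and the median difference was -0.09. Vwf, a clotting factor of vessel walls, differed by 0.77 ± 0.29 with overlap. It differed by 1.67 with the array set as a block (limma adjusted p = 0.0584), and by 1.93 and 1.47 within the sets. Robo4, a guidance receptor of vessels, differed by -0.31 ± 0.12, and by -0.12 with that block.

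Of 20 adipocyte genes, 1 was higher and 6 lower at an unadjusted p under 0.05, and the median difference was -0.12. Plin4, a lipid droplet coat protein, differed by -1.61 ± 0.43 and Gpd1, which makes glycerol phosphate, by -0.91 ± 0.31 (SE), with overlap in both, and Gpd1 by -0.57 with the array set as a block. Gpd1 was detected in only 3 Cd74-high tumors. Adipoq, the hormone adiponectin, averaged 8.36 ± 1.17 in Cd74-high and 8.40 ± 0.80 in Cd74-low tumors (SD, n = 5 each).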

How the data were processed

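RNA was measured on mouse bead arrays. The deposited table without normalization holds a linear intensity and a detection p-value for each probe and array, per the file headers; the authors' normalized table holds intensity values quantile normalized within 5 array sets, as their distributions show. The submitters' processing notes name BeadStudio; its settings and version are not given in the sources here. Tumors were ranked on quantile-normalized Cd74 intensity. For all else, intensities were processed with neqc (limma 3.58.1, R 4.3.3, offset of 16). Probes with 1 gene symbol and a detection p under 0.01 on at least 3 of 21 arrays were kept, and the probe of highest mean was used for each gene.

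Groups of 5 were compared with limma (lmFit, eBayes with trend, two-sided), adjusted by Benjamini-Hochberg over 11033 genes. On simulated data of this comparison with 11033 genes, 79% of 100 genes changed 2-fold and 96% of 100 changed 4-fold were recovered, and 3.85% of 182 calls were unchanged genes. In the tumors themselves 58 genes higher and 25 lower differed at least 2-fold without overlap, while limma called 3 and 1. The simulated shares therefore do not carry over to the calls reported here. The members and the 25 lists were chosen with earlier results of these data known. Named genes were the class II list, the 10 largest differences in each direction among called genes and then among genes without overlap, up to 4 members of each list and direction by smallest p, the 10 most like Cd74 and 9 common markers; exceptions are named in the text. The number of arrays limits the precision. Of 3 sex-linked and 5 lymphatic genes measured, 0 were called by limma and 0 had an unadjusted p under 0.05. Over all 11033 genes limma called 3 higher and 1 lower, and 14.7% had an unadjusted p under 0.05. Of 4 erythroid genes 1 had an unadjusted p under 0.05, Slc4a1, with a difference of -2.17 and detection in 1 Cd74-high tumor.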

Additional observations from a re-analysis of the deposited data

Results flagged for a closer look

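In 8 of 198 groups of 5 tumors examined, 1 tumor lay far from the other 4, with a gap over 0.71 of the group's range. Chance alone marks about 1 in 20 such groups. Tumor 90 of the Cd74-low group was marked in 4: Myoz1 was at 11.55 against at most 9.94 in the other 4, Asb12 at 7.99 against at most 6.74, Gpd1 at 7.505 against at most 6.29, and Cd86 at 7.92 against at least 8.42. In the Cd74-high group, tumor 135 had Adh1 at 6.36 against at most 5.68 in the other 4. It also had Slc4a1, the band 3 anion exchanger of red cells, at 7.90 against at most 4.85. Tumor 115 had H2-Q7 at 9.33 against at most 8.39 in the other Cd74-high tumors. Tumor 104 of the Cd74-low group had Dennd1c at 5.80 against at least 6.55.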

How the results depend on the processing

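The direction of the class II, class I, interferon-stimulated, macrophage, dendritic cell, T and NK cell, pan-leukocyte and mature muscle list medians was the same under the 24 alternatives that give a median difference; the 2 fits on the Cd74 level give slopes and none. The class II median ranged between 0.98 and 2.16. The counts of calls by limma depended on the setting. With median centring they were 114 higher and 4 lower, with 330 and 24 genes without overlap, so that 93.2% of those without overlap lay in the higher direction, against 57.8% in the report. With the authors' values 1 gene was higher and 0 lower, with 57 and 20 without overlap. With the array set as a block, or with Y-linked detection as a covariate, or with the third Cd74 probe, 0 were higher and 0 lower, with 1130, 1488 and 1904 genes at an unadjusted p under 0.05. H2-Aa then had an adjusted p of 0.149, 0.0593 and 0.0591. With the middle tumors as a group of their own 125 were higher and 27 lower, and with array weights 97 and 26. On the Cd74 level over 15 tumors 440 rose and 230 fell, and 486 and 281 with the set as a block. With the second Cd74 probe 168 were higher and 44 lower, with 323 without overlap in the higher direction. Leaving out each tumor in turn gave 0 to 256 higher and 0 to 76 lower calls, and 209 to 473 and 162 to 306 genes without overlap. The highest of each came without tumor 135. Added after the data were seen, leaving out tumors 89, 90 and 104 gave 1 higher and 0 lower, with 538 and 608 without overlap, where fewer tumors alone make overlap rarer.

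H2-Aa, C4a, C4b and Ebf3 kept their direction throughout, with adjusted p from 5.4e-05 to 0.801 for H2-Aa and from 0.000456 to 0.379 for C4a. Of 97 genes named, 4 changed direction. Adipoq, at -0.04, was 0.016 without background correction, 0.058 with median centring, 1.17 with the set as a block, 0.12 on Cd74 with that block and 0.29 without tumors 89, 90 and 104. Ptch1, at 0.14, was -0.38, -0.025, -0.14, -0.0038 and -0.14 with the set as a block, on Cd74, on Cd74 with the block, with the third probe and without those 3 tumors. Myog, at 0.10, was -0.031 with array weights and -0.27 without those 3 tumors, and Dcpp1, at -4.76, was 0.50 there. Leaving out 1 tumor in turn gave -0.30 to 0.44 for Adipoq, -0.059 to 0.20 for Myog and -0.060 to 0.31 for Ptch1. The cause of these changes was not tested. No paired analysis was possible because the groups share no replicate number.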

Other observations

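H2-M2, a class I-like gene that belongs to none of the lists, was chosen after its values were seen. It had 13.07, 11.97, 12.18, 10.11 and 7.07 in Cd74-high tumors 115, 174, 65, 165 and 135, against 7.11, 6.60, 6.63, 5.43 and 4.82 in Cd74-low tumors 89, 95, 144, 90 and 104. The groups overlapped only where tumor 135 met tumor 89. The difference was 4.76 ± 0.96 (SE; limma adjusted p = 0.0776), with 8.25 and 4.41 within the 2 array sets that hold both groups. H2-M2 rose with Cd74 over 15 tumors at a limma adjusted p of 6.3e-05. That fit uses the probe that ranked the tumors, so it is no separate support. The H2-M2 level was 4.57 in Myogenin-Cre tumors and 4.60 in muscle. The 8.25 sets tumor 115 against tumor 104, whose 4.82 was near these lowest levels.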
